A study of Homo sapiens with 24 samples.

Results

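The genes described here are 9 histone genes that lie outside the large histone gene clusters: H1F0, H1FX, H2AFJ, H2AFV, H2AFX, H2AFY, H2AFZ, H3F3A and H3F3B. They were chosen by symbol, as 9 of the 30373 rows of the deposited expression table, with earlier results of these data known. RNA was measured in 4 established human cell lines after 24 h in DMSO (the vehicle), in 100 nM ABBV-075 or in 200 nM ABBV-744, which makes 12 groups of 2 libraries and 24 libraries in all. Acute myeloid leukaemia gave rise to SKM-1, to MV-4-11 (with an MLL fusion) and to Kasumi-1 (with a fusion of RUNX1 to RUNX1T1), whereas NCI-H1299 was derived from a lung carcinoma. BET proteins bind acetylated histone tails through paired bromodomains; ABBV-075 (mivebresib) blocks both, and ABBV-744 is selective for the second. All lines were grown in RPMI-1640 medium with serum, all RNA was poly-A selected, and the doses of the compounds differ, so every comparison between them holds for these doses.

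Most histone protein is made from clustered genes that are transcribed during DNA replication and whose messages usually end in a stem-loop instead of a poly-A tail. The genes described here are different in kind: their messages carry introns or poly-A tails, they are transcribed throughout the cell cycle, and their proteins replace or supplement the canonical histones. H1.0 and H1X are linker histones, H2A.Z marks promoters and regulatory nucleosomes, macroH2A is found in repressed chromatin, H2A.X is phosphorylated around DNA breaks, and H3.3 is deposited outside replication by HIRA or by DAXX with ATRX. Because the libraries were poly-A selected, messages that end in the stem-loop, as many from H2AFX and the clustered genes do, are largely left out.

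Values are FPKM (fragments scaled to the length of the transcript and the size of the library), so levels can be set beside each other per length. Changes are differences of log2(FPKM + 1), which understate the change of low genes, given with the standard error (SE) from a limma model over all 24 libraries. A gene is called where its p-value, adjusted by Benjamini and Hochberg over all genes tested in that comparison, is under 0.05. The FPKM sum of a library ran from 543426 to 719215, and 11243 to 12624 genes reached 1 FPKM. The 2 libraries of a group differed with an SD over genes of 0.16 to 0.28 on the log2 scale in 10 of the 12 groups, but of 0.63 in SKM-1 with DMSO and 0.47 in Kasumi-1 with ABBV-075, and where leaving out one of those libraries changed a call against DMSO or between lines, or moved a called value by over 1.5 times, this is said for the genes described. All 7 leucocyte markers averaged at least 1 FPKM in every leukaemia group. In NCI-H1299 they summed to 2.75 to 4.17 FPKM, with PTPRC, CD33, SPI1 and CD53 under 0.1 FPKM in DMSO, and the carcinoma list summed to 999.8 and 1027 FPKM in DMSO although KRT19, EPCAM and CDH1 lay under 0.1 FPKM. The values come from whole cultures, in which fewer cells with a transcript and less transcript per cell cannot be told apart.

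All 9 genes were above 1 FPKM in all 24 libraries and were tested in every comparison. In the DMSO libraries, H2AFZ, which encodes H2A.Z.1, had the highest mean of the 9 in MV-4-11 (724 FPKM), Kasumi-1 (631 FPKM) and NCI-H1299 (764 FPKM), at percentiles 98.9, 98.8 and 99.05 of the rows that reached 1 FPKM. In SKM-1 the highest mean was that of H3F3A (818 FPKM), from libraries at 190.4 and 1445 FPKM, followed by H2AFZ at 591 FPKM. The order continued with H2AFY at 377 FPKM, H3F3B at 319 FPKM, H3F3A at 183 FPKM and H2AFV at 117 FPKM in MV-4-11, and Kasumi-1 had the same order of these 5 genes. Among these neighbours, H2AFZ and H2AFY did not overlap in MV-4-11 or Kasumi-1. In MV-4-11 the H3F3B libraries (236.5 and 401 FPKM) spanned both H2AFY libraries (376 and 379 FPKM). The place of H3F3A is uncertain, because its reads could be divided with the row of H3F3AP4, an annotated H3F3A pseudogene described below. Both rows together averaged 1714 FPKM in SKM-1, 603 FPKM in MV-4-11, 668 FPKM in Kasumi-1 and 293 FPKM in NCI-H1299. In Kasumi-1 this exceeded the mean of H2AFZ, but the sum assumes that both rows were divided by like transcript lengths, which are not stated. H2AFJ was the lowest of the 9 in each leukaemia line, at 2.28 ± 1.09 FPKM in SKM-1, 8.93 ± 1.33 in MV-4-11 and 2.55 ± 0.263 in Kasumi-1 (SD, n = 2). H1F0 was the lowest in NCI-H1299, at 10.7 ± 0.041 FPKM (SD, n = 2).

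**Figure D1:**
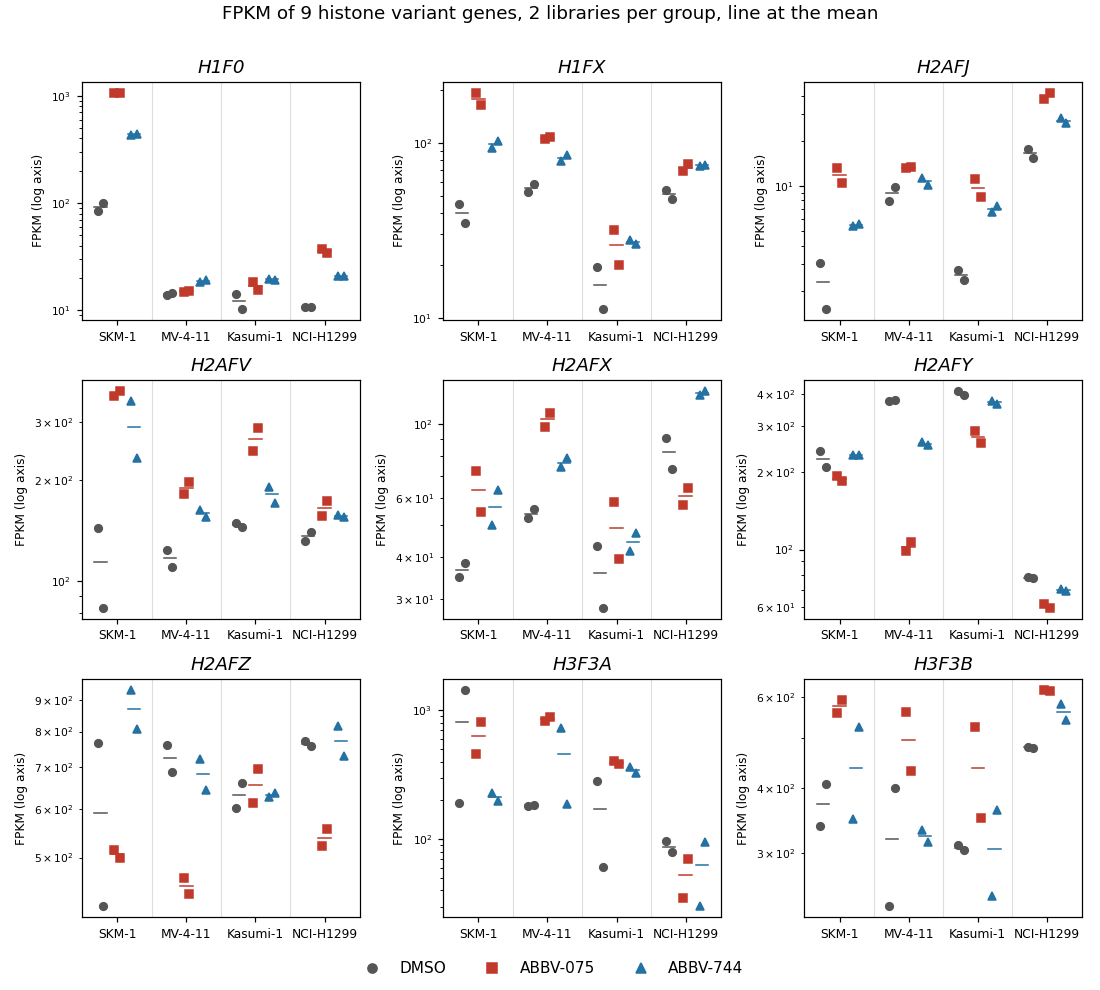
FPKM of the 9 genes on a logarithmic axis, with 1 point for each library and a short line at the mean of the 2 libraries of a group, by cell line and treatment. The H1F0 libraries of SKM-1 sit between 84.1 and 1071 FPKM, above all libraries of the other lines, and the H3F3A libraries of a group lie far apart in several groups.

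Untreated levels separated the lines for some genes more than for others. The 6 line pairs were compared with DMSO alone. For SKM-1 against MV-4-11, 4 of the 9 genes were called, beside 62.9% of all genes tested, and for SKM-1 against Kasumi-1 it was 3 of 9 beside 61.9%. SKM-1 against NCI-H1299 gave 5 of 9 beside 70.2%, MV-4-11 against Kasumi-1 gave 3 of 9 beside 62.6%, and NCI-H1299 gave 5 of 9 against MV-4-11 beside 71.4% and 5 of 9 against Kasumi-1 beside 70.4%. In each pair the share of the 9 genes that was called lay below the share of all genes. Without SKM-1 DMSO replicate 1 more of the 9 genes were called in each of the 3 pairs with SKM-1. The share of all genes called in that fit is not given here, so no background stands beside this. H2AFZ and H2AFV, the H2A.Z genes, were called in none of the 6 pairs with all libraries. Their differences farthest from 0 were −0.43 ± 0.20 for H2AFZ (SKM-1 minus NCI-H1299, adjusted p = 0.0593) and −0.42 ± 0.20 for H2AFV (SKM-1 minus Kasumi-1, adjusted p = 0.0832), and with median-ratio scaling the second was −0.57 and called (adjusted p = 0.019). Without SKM-1 DMSO replicate 1 both genes were called lower in SKM-1 than in MV-4-11, Kasumi-1 and NCI-H1299, H2AFZ by −0.79, −0.60 and −0.87 (adjusted p = 5.04e-05, 0.000674 and 1.48e-05) and H2AFV by −0.49, −0.82 and −0.70 (adjusted p = 0.0231, 0.000847 and 0.00214). Without replicate 2 in its place none of these 6 differences was called, and they lay between −0.03 and 0.30. Leaving out replicate 1 also brought calls for H1FX against MV-4-11 (−0.64, adjusted p = 0.038) and H2AFJ against Kasumi-1 (−0.50, adjusted p = 0.0187), while the H2AFX difference from MV-4-11 (−0.55, adjusted p = 0.0323) was lost without either library (adjusted p = 0.113 and 0.0533).

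The genes that did separate the lines were led by H1F0, H2AFJ and H2AFY. H1F0 stood at 84.1 and 100.4 FPKM in SKM-1 and at 10.3 to 14.6 FPKM in the other lines, and the log2 difference from SKM-1 was 2.61 ± 0.13 for MV-4-11, 2.82 ± 0.13 for Kasumi-1 and 2.99 ± 0.13 for NCI-H1299 (adjusted p = 4.55e-11, 1.8e-11 and 3.77e-12). H2AFY, which encodes macroH2A1, stood at 376 and 379 FPKM in MV-4-11, 410.0 and 395 FPKM in Kasumi-1, 240.5 and 209.5 FPKM in SKM-1 and 78.3 and 77.3 FPKM in NCI-H1299. MV-4-11 minus Kasumi-1 was not called (−0.09 ± 0.10, adjusted p = 0.42), and each exceeded SKM-1, which exceeded NCI-H1299 by 1.52 ± 0.10 (adjusted p = 5.44e-10). With median-ratio scaling the MV-4-11 to Kasumi-1 difference of H2AFY was −0.22 (adjusted p = 0.0335). H2AFJ was higher in NCI-H1299 than in each leukaemia line, with log2 differences of −0.82 ± 0.19 for MV-4-11 minus NCI-H1299, −2.30 ± 0.19 for Kasumi-1 and −2.45 ± 0.19 for SKM-1.

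Under ABBV-075 the 9 genes moved in both directions, with H2AFJ higher and H2AFY lower in all 4 lines. In SKM-1, 7 of the 9 genes were called (6 higher and 1 lower), beside 61.3% of all genes tested (32% higher and 29.2% lower). In MV-4-11, 7 of 9 were called (5 higher and 2 lower) beside 42.4% (20.3% and 22.1%). Kasumi-1 had 5 of 9 (4 higher and 1 lower) beside 57.3% (24.7% and 32.6%), and NCI-H1299 had 4 of 9 (2 higher and 2 lower) beside 47.1% (20.6% and 26.5%). In this fit, where all 12 groups share 1 estimate of the spread, the shares were near the background in Kasumi-1 and NCI-H1299. Fits of the line alone called 3 of 9 in Kasumi-1 and 8 of 9 in NCI-H1299. Over all genes they called 5651 of 12158 and 8870 of 12851. The median log2 change of the 9 genes was 0.77, 0.68, 0.48 and 0.28 in SKM-1, MV-4-11, Kasumi-1 and NCI-H1299, while the medians of all genes tested were 0.05, −0.01, −0.09 and −0.06.

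With ABBV-744, 6 of 9 genes were called in SKM-1, all higher, beside 27.4% of all genes (14.9% higher and 12.5% lower). MV-4-11 had 1 of 9, lower, beside 11.4% (4.62% and 6.75%). Kasumi-1 had 3 of 9, all higher, beside 23.6% (8.69% and 14.9%), and NCI-H1299 had 2 of 9, both higher, beside 5.35% (1.4% and 3.95%). The medians of the 9 genes were 0.62, 0.38, 0.33 and 0.23 in the same order, beside 0.05, 0.02, −0.04 and −0.03 for all genes. Fits of each line alone called 2, 5, 1 and 5 of the 9 in that order. Over all genes they called 260, 2062, 927 and 2739 in place of 3604, 1418, 2873 and 687. Counts in different lines are therefore not directly comparable. With 2 libraries a group, groups that do not overlap are common: against DMSO this held for 68.2%, 77.8%, 72.6% and 85.8% of all genes with ABBV-075 and for 50.6%, 58%, 68.2% and 65.6% with ABBV-744. The comparisons of both compounds with DMSO use the same DMSO libraries. Of the 35 calls against DMSO, 17 held in every alternative setting and with every library left out, and 15 were lost when at least 1 library was left out. The count for SKM-1 with ABBV-075 was 4 without ABBV-075 replicate 1, that for MV-4-11 was 4 without DMSO replicate 1 or ABBV-075 replicate 2, that for Kasumi-1 was 3 without DMSO replicate 2 or ABBV-075 replicate 1, and that for NCI-H1299 was 2 without ABBV-075 replicate 2.

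**Figure D2:**
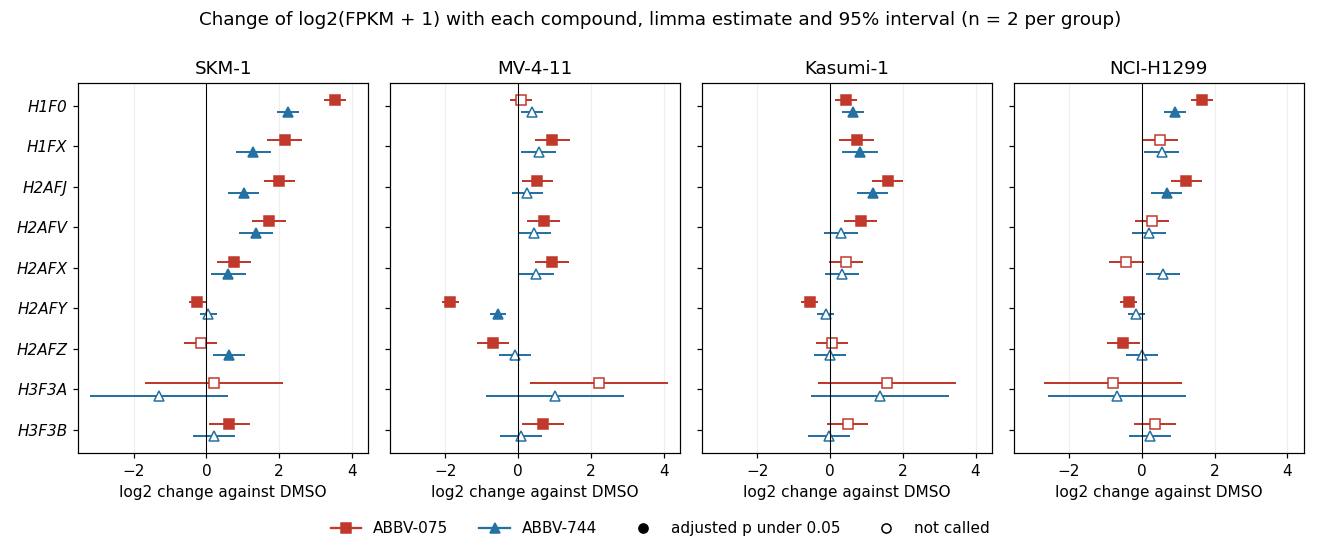
Log2 change of each gene against DMSO in the 4 cell lines, with ABBV-075 as squares and ABBV-744 as triangles, where bars are 95% intervals from limma and filled symbols are called. H1F0 in SKM-1 has the change farthest from 0 at 3.52 with ABBV-075, H2AFY lies left of 0 with ABBV-075 in all 4 lines, and the intervals of H3F3A are the widest.

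Of the linker histones, H1F0 encodes H1.0, a variant known to accumulate in cells that stop dividing and differentiate. In SKM-1 it went from 84.1 and 100.4 FPKM with DMSO to 1071 and 1064 FPKM with ABBV-075 and 434 and 444 FPKM with ABBV-744. Neither treated group came near the DMSO libraries. The rise was 11.6-fold with ABBV-075 (log2 change 3.52 ± 0.13, adjusted p = 6.11e-12) and 4.76-fold with ABBV-744 (2.24 ± 0.13, adjusted p = 1.02e-08), and leaving out any 1 library gave 3.40 to 3.65 and 2.12 to 2.37. In NCI-H1299 it went from 10.7 and 10.7 FPKM to 37.3 and 34.6 FPKM with ABBV-075 and 21.01 and 21.14 FPKM with ABBV-744, again with no overlap. These changes were 1.66 ± 0.13 (adjusted p = 5.95e-08) and 0.92 ± 0.13 (adjusted p = 0.000318).

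H1F0 moved far less in the other leukaemia lines. In Kasumi-1 the libraries were at 14.3 and 10.3 FPKM with DMSO, 18.25 and 15.6 FPKM with ABBV-075 and 19.65 and 19.2 FPKM with ABBV-744, and both changes were called (0.44 ± 0.13, adjusted p = 0.00828, and 0.63 ± 0.13, adjusted p = 0.00226). The first call rested on single libraries: without DMSO replicate 2 it was 0.22 (adjusted p = 0.171) and without ABBV-075 replicate 1 it was 0.34 (adjusted p = 0.0655). In MV-4-11 the values were 13.9 and 14.6 FPKM with DMSO, 14.8 and 15.25 FPKM with ABBV-075, and 18.3 and 19.4 FPKM with ABBV-744. The MV-4-11 change with ABBV-075 was 0.07, with a 95% interval from −0.20 to 0.35, and that with ABBV-744 was 0.38 ± 0.13 (adjusted p = 0.0755). After scaling each library to the same sum the second was 0.47 and called (adjusted p = 0.0338).

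H1FX encodes H1X, a linker histone expressed in dividing and resting cells alike. It rose with ABBV-075 in SKM-1 from 44.6 and 34.97 FPKM to 194 and 164 FPKM, a 4.51-fold change (2.15 ± 0.22, adjusted p = 4.56e-07). In MV-4-11 it rose from 52.45 and 58.2 FPKM to 105 and 109 FPKM (0.94 ± 0.22, adjusted p = 0.00243). In neither line did the groups overlap. Kasumi-1 went from 19.5 and 11.2 FPKM to 31.8 and 20.02 FPKM (0.73 ± 0.22, adjusted p = 0.00902), where the gap between groups is small and the call was lost without DMSO replicate 2 (0.36, adjusted p = 0.184) or ABBV-075 replicate 1 (0.41, adjusted p = 0.133). NCI-H1299 libraries were at 53.8 and 47.7 FPKM with DMSO and 68.7 and 75.8 FPKM with ABBV-075 (0.50 ± 0.22, adjusted p = 0.0684). That difference was called with median-ratio scaling (adjusted p = 0.0281), with equal sums (adjusted p = 0.0387) and in a fit of NCI-H1299 alone (adjusted p = 0.000396). With its value unchanged at 0.50, it was also called where either Kasumi-1 DMSO or either Kasumi-1 ABBV-075 library was left out. With ABBV-744, H1FX was called in SKM-1 (93.3 and 103 FPKM, 1.29 ± 0.22, adjusted p = 0.000476) and in Kasumi-1 (27.8 and 26.5 FPKM, 0.83 ± 0.22, adjusted p = 0.0111, lost without DMSO replicate 2 at 0.46, adjusted p = 0.183, and without ABBV-744 replicate 1 at 0.80, adjusted p = 0.0688). MV-4-11 read 79.35 and 84.9 FPKM with ABBV-744 (0.56 ± 0.22, adjusted p = 0.116). The antisense row H1FX-AS1 was at 0.172 to 1.58 FPKM in all libraries, and whether the counting used strand is not stated in the sources used here.

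The clustered linker histone genes are set beside them as a list of 6 genes, of which 4, 2, 1 and 2 passed the filter in SKM-1, MV-4-11, Kasumi-1 and NCI-H1299. HIST1H1C, which encodes H1.2 and also gives polyadenylated messages, rose with both compounds in all 4 lines. Its mean went from 12.4 to 215 FPKM with ABBV-075 and to 79.4 FPKM with ABBV-744 in SKM-1, changes of 4.06 ± 0.18 and 2.63 ± 0.18 (adjusted p = 3.76e-11 and 4.53e-08). In NCI-H1299 it went from 22.1 to 140.5 and 47.0 FPKM (2.61 ± 0.18 and 1.05 ± 0.18), and in MV-4-11 from 10.15 to 57.2 and 30.8 FPKM (2.38 ± 0.18 and 1.51 ± 0.18). In Kasumi-1 it went from 1.44 to 9.23 and 5.41 FPKM (2.06 ± 0.18 and 1.39 ± 0.18). In MV-4-11 with ABBV-075, HIST1H1C was thus called higher while H1F0 stood at 0.07, a contrast that was not itself tested. The other 3 genes tested in SKM-1, HIST1H1B, HIST1H1D and HIST1H1E, were under 1 FPKM with DMSO and passed the filter through treated libraries, so their values there are given as levels with no weight on a test: HIST1H1E, which encodes H1.4, had means of 0.586 FPKM with DMSO and 2.78 FPKM with ABBV-075. In NCI-H1299 HIST1H1E was called lower with ABBV-075 (2.89 to 1.02 FPKM).

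H2AFJ encodes H2A.J, an H2A variant of mammals that has been found to accumulate in senescent cells. It rose with ABBV-075 in all 4 lines. SKM-1 went from 3.05 and 1.51 FPKM to 13.2 and 10.5 FPKM (1.9999 ± 0.19, adjusted p = 1.98e-07), and Kasumi-1 from 2.73 and 2.36 FPKM to 11.1 and 8.405 FPKM (1.59 ± 0.19, adjusted p = 3.23e-06). In both lines every treated library lay well above the DMSO libraries. NCI-H1299 went from 17.7 and 15.3 FPKM to 38.0 and 41.95 FPKM (1.23 ± 0.19, adjusted p = 6.69e-05), and MV-4-11 from 7.99 and 9.87 FPKM to 13.2 and 13.3 FPKM (0.53 ± 0.19, adjusted p = 0.0323). The MV-4-11 call was lost without DMSO replicate 1 (0.39, adjusted p = 0.216) and without either ABBV-075 library. With ABBV-744 the libraries read 5.37 and 5.56 FPKM in SKM-1 (1.02 ± 0.19), 6.69 and 7.36 FPKM in Kasumi-1 (1.18 ± 0.19) and 28.4 and 26.1 FPKM in NCI-H1299 (0.69 ± 0.19), with adjusted p = 0.000945, 0.000333 and 0.0418. The SKM-1 value was 0.67 without DMSO replicate 2 (adjusted p = 0.0107), and its call was lost in a fit of that line alone (adjusted p = 0.103). The NCI-H1299 call was lost in 16 of the 24 fits that left out a library. MV-4-11 with ABBV-744 read 11.3 and 10.2 FPKM (0.25 ± 0.19, adjusted p = 0.474).

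H2AFX encodes H2A.X, whose phosphorylated form marks DNA double-strand breaks, and its messages that end in the stem-loop are largely left out here. It rose with ABBV-075 in SKM-1, from 34.9 and 38.4 FPKM to 72.45 and 54.7 FPKM (0.77 ± 0.21, adjusted p = 0.00493), and in MV-4-11, from 52.35 and 55.5 FPKM to 98.04 and 108 FPKM (0.92 ± 0.21, adjusted p = 0.00218). In SKM-1 the call was lost without ABBV-075 replicate 1 (0.57, adjusted p = 0.0694). With ABBV-744 it was called in SKM-1 (49.7 and 63.5 FPKM, 0.61 ± 0.21, adjusted p = 0.0421), a call lost in 16 of the 24 fits that left out a library. The NCI-H1299 libraries lay on the other side, at 91.0 and 73.4 FPKM with DMSO and 57.4 and 64.5 FPKM with ABBV-075 (−0.42 ± 0.21, adjusted p = 0.111), but at 122 and 125 FPKM with ABBV-744 (0.59 ± 0.21, adjusted p = 0.141). The 3 NCI-H1299 groups did not overlap. Kasumi-1 libraries were at 43.2 and 28.2 FPKM with DMSO and 58.5 and 39.5 FPKM with ABBV-075 (0.45 ± 0.21, adjusted p = 0.0784), so the groups overlapped, and with median-ratio scaling the difference was 0.55 and called (adjusted p = 0.0245). It was also called without DMSO replicate 1 (0.75, adjusted p = 0.0147) or ABBV-075 replicate 2 (0.73, adjusted p = 0.0169), and stood at 0.15 and 0.17 without the other library of each pair. Of 8 genes of the kinase and scaffold pathway that acts on H2A.X, 4 fell and 1 rose in SKM-1 with ABBV-075, 1 fell in MV-4-11, 4 fell in Kasumi-1, and 2 fell and 1 rose in NCI-H1299, beside 61.3%, 42.4%, 57.3% and 47.1% of all genes called. These shares of the list were near or below those of all genes. For lower calls alone, the list, chosen with earlier results of these data known, lay above all genes in SKM-1 (29.2%) and Kasumi-1 (32.6%). It lay below them in MV-4-11 (22.1%) and NCI-H1299 (26.5%). PRKDC, the catalytic subunit of the DNA-dependent kinase that phosphorylates H2A.X, fell in all 4 lines, from −1.08 ± 0.11 in SKM-1 to −0.32 ± 0.11 in NCI-H1299, and MDC1, which binds the phosphorylated tail, fell in SKM-1 (−0.83 ± 0.14), Kasumi-1 (−0.80 ± 0.14) and NCI-H1299 (−1.11 ± 0.14).

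The H2A.Z genes, H2AFZ and H2AFV, encode H2A.Z.1 and H2A.Z.2, which are nearly the same protein. Their coding sequences in the GENCODE 29 transcripts are alike at 309 of 382 aligned bases (80.9%), with no identical run longer than 23 bases. The first 90 coding bases are shown because the rows of both genes moved apart below, and capitals mark the bases of H2AFV that differ from H2AFZ, 71 of the 90 being identical.
H2AFZ coding start: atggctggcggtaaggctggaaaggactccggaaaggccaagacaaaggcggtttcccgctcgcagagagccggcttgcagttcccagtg
H2AFV coding start: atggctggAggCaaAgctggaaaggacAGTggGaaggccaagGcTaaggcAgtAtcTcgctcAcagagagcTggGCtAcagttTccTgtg

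H2AFV rose with ABBV-075 in all 3 leukaemia lines, while H2AFZ fell in MV-4-11 and NCI-H1299 and rose in no line. H2AFV went from 144 and 83.0 FPKM to 358 and 370.0 FPKM in SKM-1 (1.73 ± 0.20, adjusted p = 2.75e-06). In MV-4-11 it went from 123 and 110.3 FPKM to 182 and 197 FPKM (0.70 ± 0.20, adjusted p = 0.0121), and in Kasumi-1 from 149 and 145 FPKM to 244 and 286 FPKM (0.84 ± 0.20, adjusted p = 0.00241). No treated library of these lines fell within the DMSO range. NCI-H1299 libraries were at 131.9 and 139.5 FPKM with DMSO and 157 and 173 FPKM with ABBV-075 (0.28 ± 0.20, adjusted p = 0.283). The MV-4-11 call was lost without DMSO replicate 2 (0.62, adjusted p = 0.0835) or without ABBV-075 replicate 2 (0.64, adjusted p = 0.0759). With ABBV-744, H2AFV was called in SKM-1 (346 and 233 FPKM, 1.37 ± 0.20, adjusted p = 0.000174), and not in a fit of SKM-1 alone (adjusted p = 0.096).

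H2AFZ fell in MV-4-11 from 761 and 687 FPKM to 464 and 436 FPKM (−0.68 ± 0.20, adjusted p = 0.0105). In NCI-H1299 it fell from 771 and 757 FPKM to 522 and 555 FPKM (−0.50 ± 0.20, adjusted p = 0.0458). The groups did not overlap in either line, but the MV-4-11 call was lost without DMSO replicate 1 (−0.61, adjusted p = 0.0743) or ABBV-075 replicate 2 (−0.64, adjusted p = 0.0655), and the NCI-H1299 call was lost in 20 of the 24 fits that left out a library. In Kasumi-1 the groups overlapped, at 602 and 660.0 FPKM with DMSO and 613 and 696 FPKM with ABBV-075. SKM-1 stood at 766 and 417 FPKM with DMSO, 514 and 499 FPKM with ABBV-075 and 934.5 and 809 FPKM with ABBV-744. The SKM-1 values depended on the DMSO library used: with ABBV-075 the change was −0.16 ± 0.20 (adjusted p = 0.506), but −0.60 (adjusted p = 0.000727) without DMSO replicate 2, and the rise called with ABBV-744 (0.62 ± 0.20, adjusted p = 0.0285) was 0.18 (adjusted p = 0.323) without that library and 1.06 (adjusted p = 1.05e-05) without DMSO replicate 1.

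The SKM-1 DMSO libraries, which differed in the levels of both genes, had H2AFZ to H2AFV ratios of 5.32 and 5.02. With ABBV-075 the SKM-1 ratios were 1.44 and 1.35, and with ABBV-744 they were 2.70 and 3.47. MV-4-11 ratios went from 6.17 and 6.23 to 2.54 and 2.21 with ABBV-075 and 4.43 and 4.13 with ABBV-744. In Kasumi-1 they went from 4.04 and 4.55 to 2.51 and 2.43, and in NCI-H1299 from 5.84 and 5.43 to 3.33 and 3.20. In each of the 4 lines every ABBV-075 library had a lower ratio than every DMSO library, and the ABBV-744 libraries lay between them. The share of other gene pairs whose ratios separate in this way is not given here. Of single genes, 68.2% to 85.8% did not overlap between ABBV-075 and DMSO. A two-sided exact permutation test of 2 against 2 libraries cannot go below p = 0.333, and the ratio was not tested in the model over all libraries.

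**Figure D3:**
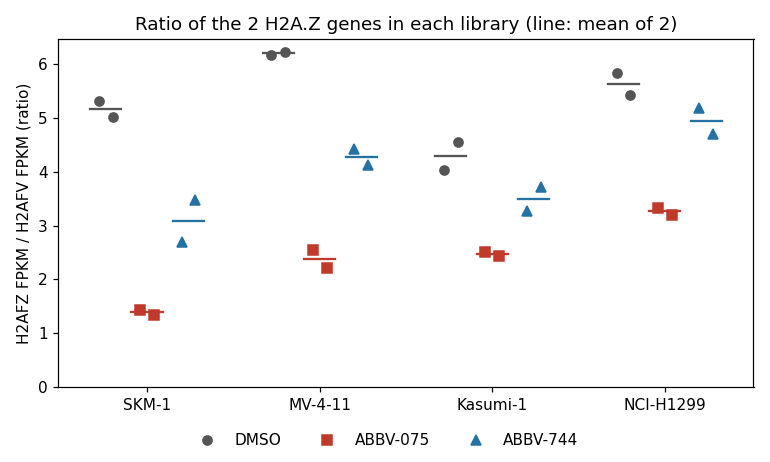
Ratio of H2AFZ FPKM to H2AFV FPKM in each library, by cell line and treatment, with a line at the mean of the 2 libraries, on an axis that starts at 0. The DMSO libraries lie between 4.04 and 6.23 and the ABBV-075 libraries between 1.35 and 3.33, with the ABBV-744 libraries between the other groups of the same line.

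H2A.Z is placed by the SRCAP and TIP60 (EP400) remodelling complexes and removed with the help of ANP32E and INO80. Of 13 genes of this machinery, all tested in each line, 6 fell and 2 rose with ABBV-075 in SKM-1, 4 fell and 1 rose in MV-4-11, 5 fell and 1 rose in Kasumi-1, and 6 fell in NCI-H1299. Beside 61.3%, 42.4%, 57.3% and 47.1% of all genes called in either direction, these counts of the list were near or below the background. Of all genes, 29.2%, 22.1%, 32.6% and 26.5% were called lower, and the share of the 13 called lower was above this in each line. This excess was not tested, and the list was chosen with earlier results of these data known. The median log2 changes of the 13 genes were −0.55, −0.31, −0.35 and −0.37. RUVBL1, an ATPase shared by these complexes, fell in SKM-1 from a mean of 78.3 to 35.4 FPKM, in Kasumi-1 from 52.7 to 14.8 FPKM and in NCI-H1299 from 115 to 70.4 FPKM, with −0.38 ± 0.17 in MV-4-11 (adjusted p = 0.0903). Its partner RUVBL2 was called lower in the same 3 lines. ANP32E fell in SKM-1 (−1.96 ± 0.46, adjusted p = 0.00175) and NCI-H1299 (−1.65 ± 0.46, adjusted p = 0.00821). With ABBV-744, 1, 0, 3 and 0 of the 13 were called in SKM-1, MV-4-11, Kasumi-1 and NCI-H1299, all lower. Of all genes, 12.5%, 6.75%, 14.9% and 3.95% were called lower.

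H2AFY encodes macroH2A1, an H2A with a large globular macro domain. It was the gene of the 9 that fell with ABBV-075 in all 4 lines. The fall farthest from 0 was in MV-4-11, from 376 and 379 FPKM to 98.6 and 107 FPKM with ABBV-075, with 260.4 and 253 FPKM under ABBV-744. The 3 MV-4-11 groups did not overlap, and the changes were −1.87 ± 0.10 (adjusted p = 4.32e-10) and −0.55 ± 0.10 (adjusted p = 0.00123). Kasumi-1 fell from 410.0 and 395 FPKM to 288 and 259 FPKM (−0.56 ± 0.10, adjusted p = 0.000139). NCI-H1299 fell from 78.3 and 77.3 FPKM to 61.6 and 59.6 FPKM (−0.36 ± 0.10, adjusted p = 0.00659), and SKM-1 from 240.5 and 209.5 FPKM to 192 and 184 FPKM (−0.25 ± 0.10, adjusted p = 0.031). The SKM-1 call was lost without DMSO replicate 1 (−0.16, adjusted p = 0.132) and without either ABBV-075 library, and the NCI-H1299 call without ABBV-075 replicate 2 (−0.33, adjusted p = 0.051). With ABBV-744, H2AFY was called in MV-4-11 and in no other line, and the values were 0.05 ± 0.10 in SKM-1, −0.11 ± 0.10 in Kasumi-1 and −0.15 ± 0.10 in NCI-H1299.

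The gene of the second macroH2A, H2AFY2, was tested in 3 lines. It fell with ABBV-075 from 22.4 and 16.6 FPKM to 3.943 and 4.004 FPKM in SKM-1, from 10.55 and 10.9 FPKM to 1.08 and 0.874 FPKM in MV-4-11 and from 4.47 and 4.71 FPKM to 0.8915 and 1.06 FPKM in NCI-H1299. These log2 changes were −2.03 ± 0.11, −2.57 ± 0.11 and −1.50 ± 0.11 (adjusted p = 3.8e-10, 4.6e-11 and 2.92e-08). In Kasumi-1 the highest library was at 0.0214 FPKM. Under ABBV-744 it fell in MV-4-11 (−0.79 ± 0.11) and NCI-H1299 (−0.53 ± 0.11). CENPA, the centromeric H3 variant, fell with ABBV-075 in SKM-1 (−0.40 ± 0.13) and NCI-H1299 (−1.76 ± 0.13) and rose in Kasumi-1 (0.45 ± 0.13, adjusted p = 0.00912).

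H3F3A and H3F3B encode the same H3.3 protein from different coding sequences, and the table also has a row for H3F3AP4, annotated as an H3F3A pseudogene. In GENCODE 29 the H3F3AP4 transcript is 411 bases long and identical to the whole coding sequence of H3F3A. In contrast, H3F3A and H3F3B share 323 of 411 coding bases (78.6%) with no identical run longer than 14. The first 90 coding bases are shown because a read from such a stretch matches H3F3A and H3F3AP4 equally well, and capitals mark the bases of H3F3B that differ from H3F3A, 69 of the 90 being identical.
H3F3A coding start: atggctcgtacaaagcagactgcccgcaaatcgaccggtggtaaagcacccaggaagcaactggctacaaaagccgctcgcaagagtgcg
H3F3AP4 coding start: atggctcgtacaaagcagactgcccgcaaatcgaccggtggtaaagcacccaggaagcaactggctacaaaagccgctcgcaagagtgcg
H3F3B coding start: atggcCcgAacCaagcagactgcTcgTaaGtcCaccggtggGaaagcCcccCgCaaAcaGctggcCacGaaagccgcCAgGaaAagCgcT

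The division of signal between the H3F3A and H3F3AP4 rows varied widely. H3F3A made up between 7.96% and 95.85% of the sum of both rows over the 24 libraries. In MV-4-11 with ABBV-744, replicate 1 had 732 FPKM for H3F3A and 70.6 FPKM for H3F3AP4, while replicate 2 had 187 and 507 FPKM, although the sums were 802 and 694 FPKM. With all libraries H3F3A alone was not called against DMSO in any line with either compound, with standard errors of 0.87, and its levels are uncertain because reads of these rows could be split between them. In MV-4-11 it went from 181 and 185 FPKM to 822.5 and 885.5 FPKM with ABBV-075 (2.22 ± 0.87, adjusted p = 0.0536) while H3F3AP4 went from 455 and 386 FPKM to 94.55 and 38.4 FPKM (−2.78, adjusted p = 0.00319). That H3F3A change was called after scaling to equal sums (2.28, adjusted p = 0.049) and in 8 of the 24 fits that left out a library. Without DMSO replicate 1 of the line, H3F3A was called lower with ABBV-744 in SKM-1 (−2.75, adjusted p = 0.0191) and higher with ABBV-075 in Kasumi-1 (2.67, adjusted p = 0.0365). H3F3A was called in 1 pair of lines, SKM-1 above NCI-H1299 (2.58 ± 0.87, adjusted p = 0.016). Without DMSO replicate 1 of SKM-1 that difference was 4.03, and the differences from MV-4-11 and Kasumi-1 were called as well (2.98 and 3.45, adjusted p = 0.00838 and 0.00351). Leaving out DMSO replicate 2 of SKM-1 ended that call (1.12, adjusted p = 0.275), as did leaving out DMSO replicate 2 of NCI-H1299 (2.43, adjusted p = 0.0717).

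As an alternative chosen after the values were seen, both rows were summed. The sum was called in 5 of the 6 pairs of lines with DMSO, all but MV-4-11 against Kasumi-1, and the pairs with SKM-1 were not refitted without 1 of its libraries. With DMSO it was 752 and 2677 FPKM in SKM-1, 636 and 570.2 FPKM in MV-4-11, 675 and 661 FPKM in Kasumi-1 and 299 and 288 FPKM in NCI-H1299. Apart from SKM-1, the libraries of a DMSO pair were close. With ABBV-075 it was 1427 and 1606, 917 and 924, 1152 and 1490.1, and 392.2 and 427 FPKM in the same order of lines. The sum was called higher with ABBV-075 in Kasumi-1 (0.97 ± 0.36, adjusted p = 0.0294) and was not called in MV-4-11 (0.61 ± 0.36, adjusted p = 0.187) or NCI-H1299 (0.48 ± 0.36, adjusted p = 0.29), where the groups did not overlap, or in SKM-1 (0.09 ± 0.36). The transcript lengths by which the deposited values were divided are not stated, so the sum assumes that they are alike.

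**Figure D4:**
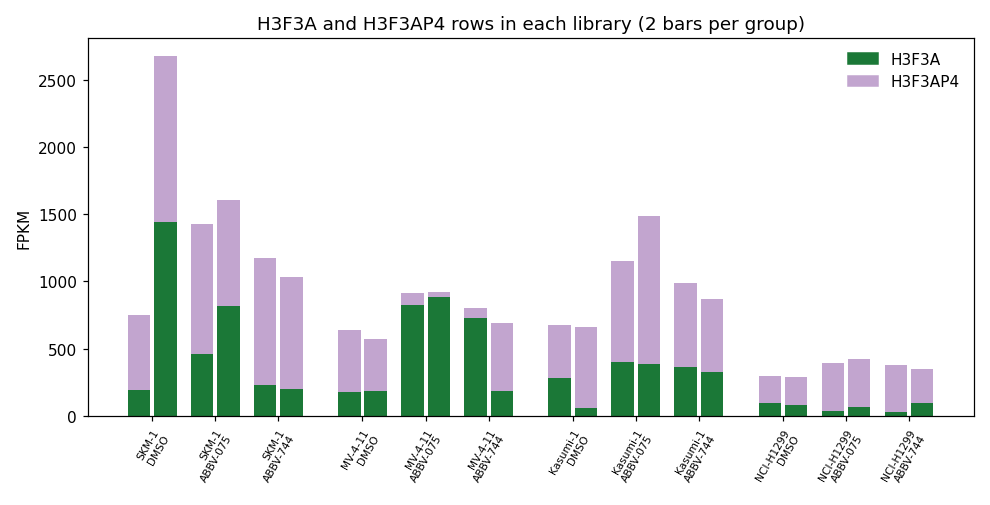
Stacked bars of the FPKM of H3F3A (dark) and H3F3AP4 (light), with 1 bar for each library and 2 bars for each group. The division between the rows differs widely between libraries of 1 group, as in MV-4-11 with ABBV-744 (91.2% and 27.0% H3F3A), and the second SKM-1 DMSO library reaches 2677 FPKM.

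H3F3B changed less than most of the genes above, and other rows with a sequence like its own were not searched for. It rose with ABBV-075 in SKM-1, from 338 and 407 FPKM to 560.3 and 592 FPKM (0.63 ± 0.26, adjusted p = 0.0429), and in MV-4-11, from 236.5 and 401 FPKM to 562 and 432 FPKM (0.68 ± 0.26, adjusted p = 0.0451). The groups did not overlap, and both calls were near the threshold, being lost in 13 and 14 of the 24 fits that left out a library and with median-ratio scaling. The MV-4-11 value was 0.30 (adjusted p = 0.458) without DMSO replicate 1 and 1.06 (adjusted p = 0.0092) without DMSO replicate 2, and the SKM-1 value was 0.50 (adjusted p = 0.17) without DMSO replicate 1. Kasumi-1 read 311 and 303 FPKM with DMSO and 526 and 350.1 FPKM with ABBV-075 (0.48 ± 0.26, adjusted p = 0.121, but 0.78 and adjusted p = 0.0416 without ABBV-075 replicate 2), and NCI-H1299 read 481.5 and 479 FPKM and 620.0 and 616 FPKM (0.36 ± 0.26, adjusted p = 0.263). No change of H3F3B with ABBV-744 was called.

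Among 7 chaperone genes of H3.3, ABBV-075 raised 2 and lowered 1 in SKM-1, raised 1 in MV-4-11, raised 2 and lowered 2 in Kasumi-1, and raised 3 and lowered 1 in NCI-H1299, near or below the 61.3%, 42.4%, 57.3% and 47.1% of all genes called, except for a higher share in NCI-H1299. DAXX, which deposits H3.3 at repeats and telomeres together with ATRX, fell in SKM-1 from a mean of 50.1 to 25.2 FPKM (−0.96 ± 0.17), in Kasumi-1 from 24.9 to 7.67 FPKM (−1.62 ± 0.17) and in NCI-H1299 from 60.4 to 20.5 FPKM (−1.51 ± 0.17). UBN1 and UBN2, subunits of the HIRA complex, were called higher in 3 lines each, UBN1 in SKM-1 (0.37 ± 0.13), MV-4-11 (0.60 ± 0.13) and NCI-H1299 (0.35 ± 0.13). With ABBV-744, 1 call was made over the 7 genes and 4 lines, DAXX in Kasumi-1 (−0.61 ± 0.17, adjusted p = 0.0184).

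The response to ABBV-075 differed between the 4 lines for 6 of the 9 genes by an F test on the compound by line terms, beside 50.4% of all 10180 genes tested. These were H1F0 (F = 145, adjusted p = 1.97e-08), H2AFY (F = 60.9, adjusted p = 1.15e-06), H1FX, H2AFJ, H2AFV and H2AFX. H2AFZ, H3F3A and H3F3B did not pass (adjusted p = 0.112, 0.156 and 0.835). H2AFZ passed without either of the SKM-1 DMSO libraries (adjusted p = 0.000219 without replicate 1 and 0.00253 without replicate 2), and H3F3A passed without replicate 1 (adjusted p = 0.0225). For ABBV-744 the response of 2 of the 9 genes differed between lines, beside 6.5% of all genes, H1F0 (F = 41.2, adjusted p = 0.000202) and H2AFY (F = 7.12, adjusted p = 0.0497). The second was not called after scaling to equal sums (adjusted p = 0.164), with a pseudocount of 0.1 (adjusted p = 0.0576) or in 20 of the 24 fits that left out a library (adjusted p up to 0.159). Without SKM-1 DMSO replicate 1, H2AFJ, H2AFV, H2AFZ and H3F3A passed as well. The share of all genes that passed in that fit is not given here, so no background stands beside this.

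Between the compounds at their unequal doses, ABBV-744 minus ABBV-075, 5 of the 9 genes were called in SKM-1 beside 43.6% of all genes, 2 in MV-4-11 beside 21.9%, 2 in Kasumi-1 beside 37.7% and 3 in NCI-H1299 beside 34.6%. In SKM-1, H1F0 (−1.28 ± 0.13), H1FX (−0.86 ± 0.22) and H2AFJ (−0.98 ± 0.19) were lower with ABBV-744, and H2AFZ (0.78 ± 0.20) and H2AFY (0.30 ± 0.10) were higher. MV-4-11 had higher H2AFY (1.31 ± 0.10, adjusted p = 9.56e-08) and H2AFZ (0.60 ± 0.20, adjusted p = 0.0391) with ABBV-744. Kasumi-1 had higher H2AFY (0.45 ± 0.10) and lower H2AFV (−0.54 ± 0.20, adjusted p = 0.0478), which was lost without ABBV-075 replicate 2 (−0.43, adjusted p = 0.247). In NCI-H1299, H2AFX was higher with ABBV-744 (1.01 ± 0.21, adjusted p = 0.00157), and H1F0 (−0.74 ± 0.13) and H2AFJ (−0.54 ± 0.19, adjusted p = 0.037) were lower. Where no difference was called the intervals were wide: for H2AFV in SKM-1 the difference was −0.36, with a 95% interval from −0.79 to 0.08, and was called where a DMSO library of that line was left out of the estimate of the spread (adjusted p = 0.0456 and 0.0457).

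Genes that accompany DNA replication give the setting of these values. Of all genes tested, 29.2%, 22.1%, 32.6% and 26.5% were called lower with ABBV-075 in SKM-1, MV-4-11, Kasumi-1 and NCI-H1299. Of 14 replication and G1/S genes, ABBV-075 lowered 13 and raised 1 in SKM-1, and lowered 14 in MV-4-11, 12 in Kasumi-1 and 14 in NCI-H1299. Their medians were −2.09, −1.26, −1.31 and −1.47. Their summed level was 1471 and 1209 FPKM with DMSO and 502 and 463 FPKM with ABBV-075 in SKM-1, 1451 and 1528 against 728 and 690.5 FPKM in MV-4-11, 999.0 and 938 against 550.5 and 473 FPKM in Kasumi-1, and 1573 and 1543 against 577 and 577.5 FPKM in NCI-H1299. MCM5, a subunit of the replicative helicase, had changes between −1.89 ± 0.30 in MV-4-11 and −2.54 ± 0.30 in Kasumi-1, and RRM2, a ribonucleotide reductase subunit, was the 1 gene that rose in SKM-1 (0.79 ± 0.10). ABBV-744 lowered 3 and raised 2 of the 14 in SKM-1, raised 1 in MV-4-11, lowered 11 in Kasumi-1 and called none in NCI-H1299. Of all genes, 27.4%, 11.4%, 23.6% and 5.35% were called with ABBV-744. The share of the 14 was above this in SKM-1 and Kasumi-1 and below it in MV-4-11 and NCI-H1299, which was not tested. The 14 genes were chosen with earlier results of these data known. The part of the 14 genes in the changes of the 9 histone genes was not tested.

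Of 11 assembly factors and general histone chaperones, ABBV-075 lowered 8 in SKM-1, 4 in MV-4-11, 3 in Kasumi-1 (with 1 higher) and 4 in NCI-H1299. In either direction, 61.3%, 42.4%, 57.3% and 47.1% of all genes were called, which the share of the list exceeded in SKM-1 and in no other line. For lower calls alone the shares of all genes were 29.2%, 22.1%, 32.6% and 26.5%. The list, chosen with earlier results of these data known, exceeded these in every line but Kasumi-1, which was not tested. CHAF1A, the large subunit of the replication-coupled assembly factor CAF-1, fell in all 4 lines, from −2.50 ± 0.24 in SKM-1 to −1.09 ± 0.24 in MV-4-11. SSRP1, a subunit of the FACT complex, fell in all 4 lines as well, from −1.75 ± 0.11 in Kasumi-1 to −1.09 ± 0.11 in NCI-H1299. Its partner SUPT16H was called lower in SKM-1 and Kasumi-1.

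**Figure D5:**
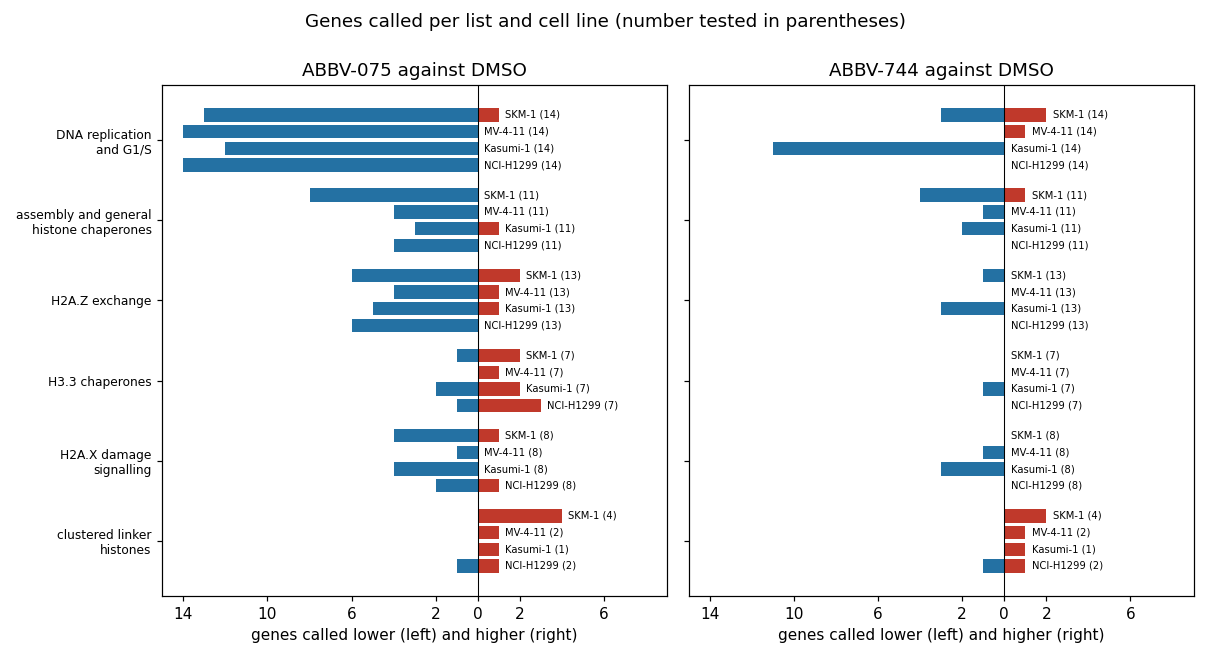
Number of genes called lower (left of 0) and higher (right of 0) against DMSO in each cell line for 6 gene lists, with ABBV-075 in the left panel, ABBV-744 in the right panel and the number of genes tested in parentheses. Replication genes were called lower in 12 to 14 of 14 cases per line with ABBV-075. Of the 4 clustered linker histones drawn for SKM-1, 3 passed the filter through treated libraries alone.

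H1FX, H2AFJ and H2AFV were called higher with ABBV-075 in all 3 leukaemia lines, and H2AFZ in none, so the sequences upstream of their start sites are shown. The calls of H2AFJ and H2AFV in MV-4-11 and of H1FX in Kasumi-1 were lost when certain single libraries were left out. They are the 250 bases before the RefSeq start site, from RefSeq on GRCh38.p14, printed in the direction of transcription, and capitals mark CCAAT (on the other strand ATTGG) and TATAAA (on the other strand TTTATA). H1FX lies at chr3:129316287-129316536, minus strand, H2AFJ at chr12:14774155-14774404, plus strand, H2AFV at chr7:44848088-44848337, minus strand, and H2AFZ at chr4:99950276-99950525, minus strand.
H1FX promoter: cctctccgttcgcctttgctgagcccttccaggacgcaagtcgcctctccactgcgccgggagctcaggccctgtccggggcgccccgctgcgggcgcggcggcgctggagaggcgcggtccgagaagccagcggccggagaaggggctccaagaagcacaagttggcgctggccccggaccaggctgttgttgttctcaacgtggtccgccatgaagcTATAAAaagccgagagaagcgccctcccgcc
H2AFJ promoter: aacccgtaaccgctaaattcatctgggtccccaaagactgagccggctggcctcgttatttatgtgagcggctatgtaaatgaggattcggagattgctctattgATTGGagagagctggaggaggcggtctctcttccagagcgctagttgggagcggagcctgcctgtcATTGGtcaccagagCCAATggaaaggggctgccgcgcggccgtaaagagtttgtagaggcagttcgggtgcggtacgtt
H2AFV promoter: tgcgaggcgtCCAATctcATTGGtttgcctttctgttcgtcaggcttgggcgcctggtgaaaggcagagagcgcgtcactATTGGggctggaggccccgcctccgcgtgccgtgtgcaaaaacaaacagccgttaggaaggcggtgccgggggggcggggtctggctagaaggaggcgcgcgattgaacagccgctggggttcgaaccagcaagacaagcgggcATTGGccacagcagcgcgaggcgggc
H2AFZ promoter: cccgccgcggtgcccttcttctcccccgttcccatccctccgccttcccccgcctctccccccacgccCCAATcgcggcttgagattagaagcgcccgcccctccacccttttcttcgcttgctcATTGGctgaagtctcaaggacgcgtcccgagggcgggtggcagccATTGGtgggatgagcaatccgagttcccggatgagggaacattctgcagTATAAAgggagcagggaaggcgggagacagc

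RefSeq promoters were matched for 8 of the 9 genes, H1F0 being the exception, with 12 start sites because H2AFY has 2 and H3F3A has 4. CCAAT or its reverse complement was found in at least 1 window of 7 of the 8 genes, and in 32.01% of all 35116 windows of the same length. At least 3 matches were found for 5 of the 8 genes and in 2.93% of all windows, and at least 4 for H2AFV, H2AFX and H3F3B and in 0.874% of all windows. H1FX had none, H2AFJ and H2AFZ had 3 each, and H2AFV had 4. A link between these matches and the changes with the compounds was not tested. The TATAAA match was present for H1FX, H2AFX, H2AFZ and H3F3B and in 10.7% of all windows. GGGCGG was present for 4 of the 8 genes (42.6% of all windows), TTCCCGC for H3F3A (5.52%), TTGGCGC for H1FX (2.56%), AAACACA for H3F3A (4.82%) and CACGTG for none (6.345%), each on both strands. A single pair of matches overlapped, of GGGCGG with itself in an H3F3A window. A match is only a description of these letters, and genes with several windows had more sequence searched.

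Genes with the pattern most like 8 of the 9 were found by the correlation of log2(FPKM + 1) over the 24 libraries, after subtracting the mean of each line, among 9662 genes with a symbol. These correlations share libraries and treatments and are given as a description. H2AFJ was most like NIT1 (r = 0.986) and TAF10 (r = 0.974), H2AFY like HPS4 (r = 0.975) and ACAA2 (r = 0.931), and H2AFV like COMMD3 (r = 0.956) and DYNLT1 (r = 0.947). H1FX was most like TRADD (r = 0.949) and PLEKHM1P (r = 0.945). H2AFZ was most like WDYHV1 (r = 0.915) and CENPL (r = 0.875), and H2AFX like SPSB2 (r = 0.897) and CIC (r = 0.866). The H3.3 genes had the lowest values, with MEX3D at 0.846 for H3F3A and SMG6 at 0.841 for H3F3B. Among the 9 genes themselves, the same measure was 0.886 for H1FX with H2AFJ, 0.864 for H1FX with H1F0 and 0.849 for H1FX with H2AFV, but 0.038 for H2AFZ with H2AFV.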

How the data were processed

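RNA of 24 libraries was sequenced on an Illumina HiSeq3000 after poly-A selection, per the labels. The authors deposited 1 table of FPKM values with 30373 rows. DESeq2 is named in the submitters' processing notes without its role, and aligner, quantifier, genome build and annotation were not given in the sources used here. Values above 0 but under 0.0001 made up 0.215% of the table, so FPKM did not count whole fragments, and the depth of the libraries is unknown. No column of the table lay outside the 24 libraries.

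Values were analysed as log2(FPKM + 1). A linear model of 12 group means with 12 residual degrees of freedom was fitted with limma 3.58.1 (R 4.3.3, statmod 1.5.0, eBayes with trend and robust), with two-sided tests and Benjamini-Hochberg adjustment over all genes tested in a comparison. Genes needed at least 1 FPKM in at least 2 of the libraries of the line, of the DMSO libraries of a pair of lines, or of every line for the F test. The fit was tested on simulated data, where the share of false calls came out above the threshold of 0.05. All calls, and above all those near the threshold, are therefore less certain than their adjusted p. The same holds for the shares of all genes called. The labels do not say if paired libraries stem from separate cultures, so p-values may measure technical spread only. Errors after ± are SE of a log2 difference or, where marked, SD.

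Alternatives were a pseudocount of 0.1, no filter, median-ratio scaling, scaling to equal sums, eBayes without trend and robust, a fit of the compared lines alone, each library left out in turn, and H3F3A summed with H3F3AP4 (added after the data were seen). The 9 genes and the 12 gene lists were chosen with earlier results of these data known. Named genes were the 9, up to 3 genes per list and compound with the largest mean absolute change among those called in at least 2 lines, the clustered linker histones, CENPA, H2AFY2, and the 2 genes most correlated with each of the 9, of which those for H1F0 are not reported here. H3F3AP4 and H1FX-AS1 were named after their values were seen. Lymphoid, erythroid and fibroblast markers were at or under 1.93 FPKM in sum in every library. Coding sequences are the longest open reading frames of GENCODE 29 transcripts, below a length limit for all but the linker histones, aligned with Biopython 1.88. For H3F3AP4 the whole of its longest transcript was used. Python 3.11.15 with pandas 2.3.3, numpy 2.4.6 and matplotlib 3.10.9 made the tables and plots.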

Additional observations from a re-analysis of the deposited data

Results flagged for a closer look

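The response to ABBV-075 differed between the 4 lines, by a limma F test of the difference itself, for H1F0 (adjusted p = 1.97e-08), which rose by 3.52 on the log2 scale in SKM-1 and stood at 0.07 in MV-4-11, and for H2AFY (adjusted p = 1.15e-06), which fell by 1.87 in MV-4-11 and by 0.25 in SKM-1. The same held for H1FX (adjusted p = 0.00202), H2AFJ (adjusted p = 0.00227) and H2AFV (adjusted p = 0.00515), each with its largest rise in SKM-1 and a change of 0.94, 0.53 and 0.70 in MV-4-11. H2AFX differed as well (adjusted p = 0.00656), with 0.92 in MV-4-11 and −0.42 in NCI-H1299. The response to ABBV-744 differed for H1F0 (adjusted p = 0.000202), with 2.24 in SKM-1 and 0.38 in MV-4-11, and for H2AFY (adjusted p = 0.0497), with −0.55 in MV-4-11 and 0.05 in SKM-1. The H2AFY difference for ABBV-744 was lost in 20 of the 24 fits that left out a library, with a pseudocount of 0.1 (adjusted p = 0.0576) and with equal sums (adjusted p = 0.164).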

How the results depend on the processing

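No paired analysis was possible because the labels give the libraries no replicate numbers, and numbers given in accession order pair nothing. No called value of the 9 genes changed sign in any alternative. Fitting the compared lines alone, which leaves fewer libraries for the estimate of the spread, gave these numbers of the 9 genes called: against DMSO, 3 in Kasumi-1 and 8 in NCI-H1299 with ABBV-075, and 2, 5, 1 and 5 in SKM-1, MV-4-11, Kasumi-1 and NCI-H1299 with ABBV-744. Between the compounds it gave 3, 4, 1 and 5 in the same order of lines. Scaling to equal sums gave 2 in MV-4-11 and 1 in NCI-H1299 with ABBV-744, and 1 for the line differences of ABBV-744. A pseudocount of 0.1 gave 1 in NCI-H1299 with ABBV-744 and 1 for those line differences. Without the filter the count was 1 in NCI-H1299 with ABBV-744 and 1 between the compounds in MV-4-11 and in Kasumi-1. The cause of these shifts was not tested.

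With 1 library left out, the counts in SKM-1, MV-4-11, Kasumi-1 and NCI-H1299 ran from 4 to 8, 4 to 8, 3 to 7 and 2 to 5 with ABBV-075, from 4 to 6, 1 to 3, 2 to 3 and 1 to 2 with ABBV-744, and from 4 to 6, 1 to 2, 1 to 3 and 2 to 5 between the compounds. For DMSO they ran from 3 to 7 for SKM-1 against MV-4-11, 3 to 7 against Kasumi-1 and 4 to 7 against NCI-H1299, from 2 to 4 for MV-4-11 against Kasumi-1 and 2 to 5 against NCI-H1299, and from 4 to 6 for Kasumi-1 against NCI-H1299. Line differences ran from 6 to 8 for ABBV-075 and from 1 to 6 for ABBV-744. The counts of 7 in the 3 DMSO pairs with SKM-1 and the 6 for the line differences of ABBV-744 came without SKM-1 DMSO replicate 1. A lone remaining library was assumed to vary like the other groups. The shares of all genes called in these fits are not given here, so these counts have no background beside them.

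Over all genes, compared lines alone called 5277 in place of 8057 in SKM-1 with ABBV-075. With ABBV-744 it called 260 in place of 3604 in SKM-1, 927 in place of 2873 in Kasumi-1 and 2739 in place of 687 in NCI-H1299. Between the compounds it called 2357 in place of 5740, 2379 in place of 4587 and 7881 in place of 4442 in these lines. A pseudocount of 0.1 called 190 in place of 687 in NCI-H1299 with ABBV-744. Without the filter the line differences were called for 9684 in place of 5126 genes with ABBV-075 and 2874 in place of 662 with ABBV-744. Equal sums moved the percentage of calls that were higher from 54.3 to 44 in SKM-1, 40.6 to 53.8 in MV-4-11 and 36.8 to 23.6 in Kasumi-1 with ABBV-744, from 56.2 to 44.6 between the compounds in Kasumi-1, and from 51.4 to 61.7 for DMSO SKM-1 against MV-4-11, and put the all-gene median at −0.39 to 0.31 in the DMSO pairs. Unknown depth limits what can be said of low values.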
